A study of Drosophila melanogaster with 22 samples.

Results

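The ecdysone synthesis genes described here are 8 of the 17478 genes in the deposited annotation, taken as every row whose gene symbol is nvd, spo, phm, dib, sad, shd, mld or woc. The first 6 code for enzymes of the steroid pathway, and mld and woc code for zinc finger proteins needed for hormone production. All 8 were present in the count files and all 8 passed the filter on low counts, which left 8024 genes. The rule uses gene symbols and no measured value.

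Insects cannot make sterols and build ecdysone from sterols in the diet. Neverland (nvd) carries out the first step from cholesterol, Spook (spo) acts in the poorly understood middle of the route, Phantom (phm), Disembodied (dib) and Shadow (sad) add the last hydroxyl groups of ecdysone in that order, and Shade (shd) turns ecdysone into the active hormone, usually in target tissue. In the Drosophila ovary the hormone is known to act on germline stem cells, on follicle cells and at the passage of egg chambers into yolk uptake, and ovarian cells are themselves a source of it.

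The libraries came from anterior ovarioles, the front of the strings of egg chambers that make up an ovary, of w1118 virgin females raised at 25 °C under constant light. This white-eyed laboratory strain was the single genotype, the labels name no treatment, and the 8 groups were ages of 1, 2, 3, 4, 5, 6, 7 and 8 days after eclosion, with 2 libraries on days 1 and 4 and 3 on each other day, 22 in all. Each library pooled germline and soma from 30 to 50 ovarioles and gave 1146915 to 9781870 gene counts in days 1 to 4 (n = 10) and 2975582 to 4634327 in days 5 to 8 (n = 12). Tissue of days 1 to 4 reached up to stage 8 egg chambers and tissue of days 5 to 8 up to stage 7, so age and dissection cannot be told apart between these age series.

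ERCC transcripts, synthetic RNAs added as a control, were nearly missing from 3 libraries. These were replicate 1 of day 2 and replicate 2 of days 3 and 4, with 19 to 52 such counts, against at least 25577 in each of the other 19. Calls of other pathway genes, and estimates of the 8 genes that turned on these 3 libraries, are given with and without them. Means, replicate scatter and likeness between genes use all libraries. Germline markers were abundant in every library, with a summed level of 4444 to 6227 CPM over 8 genes, and the follicle cell list of 8 genes summed to 488 to 1083 CPM. CPM is a count scaled to a common library size, here by TMM normalization over genes. Of 5 haemocyte genes He had no count in any library and NimC1 5 counts in all, while Hml had 120, Pxn 794 and srp 6889. Of 5 fat body genes Fbp1, Fbp2, Lsp2 and Lsp1gamma had 1 to 30 counts in all, while Rfabg had 4426 counts and was found in all 22 libraries. The 10 chorion genes, made by follicle cells of late egg chambers, summed to 108 to 1640 CPM in days 1 to 4 and 3.77 to 33.3 CPM in days 5 to 8.

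In the deposited annotation, from FlyBase release 6, nvd (FBgn0259697) lies on chromosome 3L from 24324866 to 24401655 on the plus strand, with 1722 nt of exon in 6 blocks. On the same arm are spo (FBgn0003486, 5590083 to 5592571, minus strand, 2489 nt in 1 block), dib (FBgn0000449, 4062292 to 4064551, plus strand, 1975 nt in 4 blocks) and shd (FBgn0003388, 14614458 to 14622205, plus strand, 3016 nt in 9 blocks). On chromosome X is phm (FBgn0004959, 18685766 to 18688433, plus strand, 2203 nt in 3 blocks). On 3R are sad (FBgn0003312, 11877235 to 11879754, plus strand, 1773 nt in 6 blocks), mld (FBgn0263490, 24585653 to 24623899, plus strand, 7369 nt in 8 blocks) and woc (FBgn0010328, 27256595 to 27264055, minus strand, 6332 nt in 13 blocks). Exons of 5 of the 8 overlap exons of a gene on the opposite strand, by 308 nt for spo (l(3)psg2), 400 nt for dib (wit), 53 nt for sad (CG6962), 98 nt for mld (Syx18) and 1802 nt for woc (CR44049). The strand setting of the counting was not given in the sources used here. Of 127 genes whose exons lie wholly under exons of the opposite strand, 22 still held at least 100 counts over the 22 libraries, with 9484 in the highest, whereas counting without strand treats such reads as ambiguous.

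The zinc finger genes were abundant and the enzyme genes were rare. Per kilobase of exon, the mean level over the 22 libraries was 105 CPM for woc and 69.8 CPM for mld, above 96.9% and 94.7% of the 17478 genes. The enzymes followed with 5.58 CPM per kilobase for sad, 4.75 for spo, 4.12 for nvd, 3.97 for phm, 1.12 for dib and 0.593 for shd, the last above 53.1% of all genes. In every library both zinc finger genes lay above each enzyme gene on this scale. The per-length level of woc was 3.43 to 9.80 times the summed per-length level of the 6 enzymes, with a median of 5.16. Because tissue was pooled, fewer cells that express a gene and less RNA per cell cannot be told apart.

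**Figure D1:**
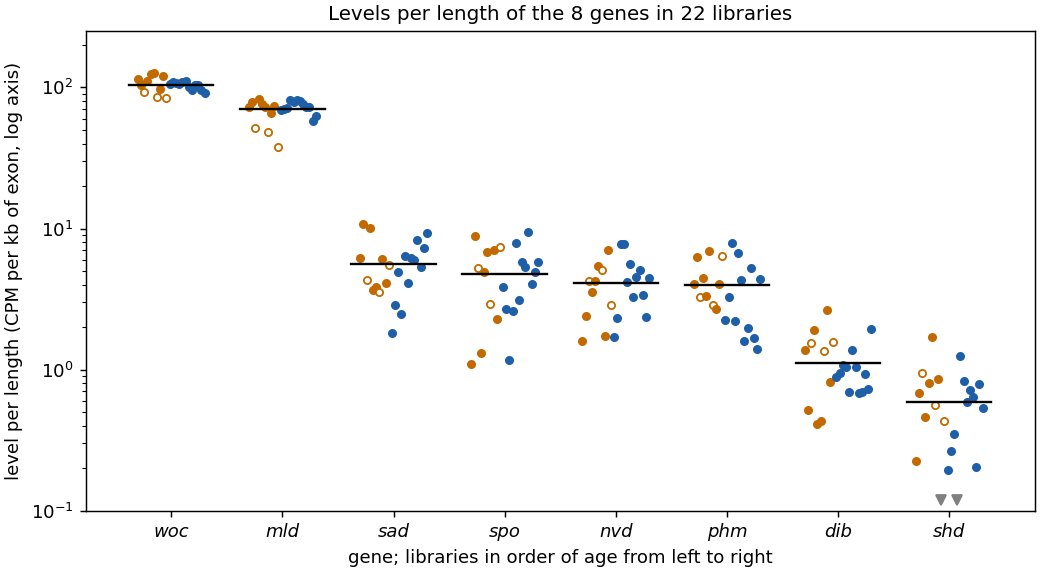
Level of each gene in each of the 22 libraries, in CPM per kilobase of exon on a log axis, with libraries in order of age from left to right. Orange points are days 1 to 4 and blue points days 5 to 8, open circles are the 3 libraries with almost no spike-in, black lines are means, and the grey triangles are the 2 libraries in which shd had no count. The points of woc and mld lie above those of all 6 enzymes, and dib and shd lie lowest.

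Among the enzymes there was an upper group of 4 and a lower group of 2. Per length, sad was the highest of the 6 in 8 libraries, spo in 7, nvd in 4 and phm in 3, so no single enzyme led throughout. The lowest was shd in 16 libraries and dib in the other 6. Within the upper group order changed from library to library: spo exceeded nvd in 15 of 22, sad exceeded phm in 15 and sad exceeded spo in 13. The ratio of spo to nvd ran from 0.152 in day 5 replicate 3 to 4.07 in day 3 replicate 3, on the per-length scale. By contrast nvd exceeded dib in 21 of 22 libraries and shd in 22.

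The question the design poses is whether transcript levels change over the first days of adult life. None of the 8 genes was called in any of 6 comparisons between ages with edgeR's quasi-likelihood test (Benjamini-Hochberg adjusted p under 0.05 over 8024 genes). When the average of days 5 to 8 was set against that of days 1 to 4, 8.82% of all genes tested were called, 4.06% higher and 4.76% lower, and 0 of the 8. The lowest unadjusted p among the 8 was 0.169 and their adjusted p ran from 0.421 to 0.891, with 2 estimates above 0, 6 below and a median log2 change of -0.15, beside -0.02 for all genes tested. Within an age series very few genes were called at all: 0.0249% for any difference among days 1 to 4, 0.0125% among days 5 to 8, 0.0374% for day 4 against day 1, 0% for day 8 against day 5, and 0% for the difference between the last 2 changes. In these 5 comparisons 0 of the 8 was called as well. With edgeR sad alone had an unadjusted p under 0.05, in 3 comparisons that all use the libraries of days 5 and 8. Of the 8024 genes 248 had such a p for any difference among days 5 to 8. For day 8 against day 5 it was 234, and for the difference between the changes 807. DESeq2 called 0 of the 8 in all 6.

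For days 5 to 8 against days 1 to 4 the intervals show what size of change was within reach. The 95% interval of the log2 change from days 1 to 4 to days 5 to 8 was -0.21 to 0.13 for woc and -0.07 to 0.38 for mld. It was -0.31 to 0.89 for nvd, -0.80 to 0.51 for spo, -0.99 to 0.25 for phm, -0.67 to 0.29 for sad, -1.13 to 0.46 for dib and -1.24 to 0.91 for shd. Changes within these intervals could not be told from no change at this depth. Intervals were wider for day 4 against day 1, at -1.51 to 1.55 for spo and -1.50 to 2.41 for dib. In that comparison they were -3.47 to 2.06 for shd and -0.50 to 0.30 for woc. The 3 counts that set the floor of detection were worth 0.307 to 2.62 CPM, depending on the library, and that range spans the mean levels of dib (2.21 CPM) and shd (1.79 CPM).

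Summed over the 6 enzymes, levels were 43.0 ± 10.5 CPM (SD, n = 10) in days 1 to 4 and 40.3 ± 12.4 CPM (SD, n = 12) in days 5 to 8. The lowest library held 23.1 CPM and the highest 62.2 CPM. Both age series span nearly the same range. Each enzyme rested on few reads: over all 22 libraries nvd had 530 counts, spo 878, phm 610, dib 173, sad 699 and shd 135.

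The first enzyme of the route, nvd, stood at 6.57 ± 3.00 CPM (SD, n = 10) in days 1 to 4 and 7.52 ± 3.38 CPM (SD, n = 12) in days 5 to 8. Its libraries held 2.73 and 4.11 CPM on day 1, then 7.36, 6.08 and 7.29 on day 2, 9.38, 8.74 and 2.98 on day 3, and 12.1 and 4.92 on day 4. They held 2.92, 4.01 and 13.3 CPM on day 5, 13.4, 7.20 and 9.58 on day 6, 5.60, 7.84 and 8.80 on day 7, and 5.80, 4.05 and 7.72 on day 8. Both day 1 libraries lay below both day 4 libraries, yet on day 5 alone the libraries differed by 4.54 times. The share of all genes that part days in this way was not counted, here or for spo, sad and woc below. With so few libraries per day such an order can arise by chance. The log2 change from day 1 to day 4 was 1.18 ± 0.74 (SE), with an edgeR adjusted p of 0.557. Leaving out 1 library at a time gave 0.54 to 1.83.

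The P450 enzyme of the middle steps, spo, was the most abundant enzyme in CPM, with 11.9 ± 6.86 (SD, n = 10) in days 1 to 4 and 11.8 ± 5.84 (SD, n = 12) in days 5 to 8. On day 1 its libraries held 2.73 and 22.1 CPM, on day 2 13.0, 3.27 and 12.1, on day 3 17.1, 7.29 and 17.5, and on day 4 5.65 and 18.4. On day 5 they held 9.65, 6.68 and 2.92 CPM, on day 6 6.43, 19.6 and 7.75, on day 7 14.4, 13.2 and 23.7, and on day 8 10.1, 12.2 and 14.5. The day 1 libraries, with 4 and 43 counts, differed by 8.10 times, more than any day means did. All day 8 libraries lay above all day 5 libraries, and that log2 change was 0.93 ± 0.60 (SE), with an adjusted p of 1. Its close relative spok, the form known from the larval prothoracic gland, had 0 counts in all 22 libraries, which allows up to 0.0406 CPM. No read was thus credited to spok, but reads that match both copies may have been left out of the counts.

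Levels of phm, the first of the terminal hydroxylases, were 9.76 ± 3.44 CPM (SD, n = 10) in days 1 to 4 and 7.90 ± 4.77 CPM (SD, n = 12) in days 5 to 8. Its libraries held 8.86 and 13.9 CPM on day 1, 7.26, 9.82 and 7.29 on day 2, 15.3, 6.31 and 5.96 on day 3, and 8.88 and 14.0 on day 4. They held 4.97, 7.21 and 17.5 CPM on day 5, 4.88, 14.8 and 9.58 on day 6, 3.54, 4.33 and 11.6 on day 7, and 3.67, 3.10 and 9.66 on day 8. In days 5 to 8 each day had 1 library well above the other 2. In days 5, 7 and 8 this was replicate 3, and on day 6 replicate 2. Day 5 replicate 3 had the highest phm of all 22 libraries and the lowest spo of days 5 to 8, giving a per-length ratio of spo to phm of 0.148, while day 7 replicate 1 gave 3.61.

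The next hydroxylase, dib, was found in every library but at 1 to 32 counts, or 0.810 to 5.21 CPM. Its mean was 2.48 ± 1.42 CPM (SD, n = 10) in days 1 to 4 and 1.99 ± 0.718 CPM (SD, n = 12) in days 5 to 8. Day 3 held both the highest library and 1 of 2 libraries with a single count, at 5.21 and 0.853 CPM. The scatter of dib within days was close to counting error, with a chi-square per degree of freedom of 1.27.

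Levels of sad, the last step to ecdysone, were 10.3 ± 4.61 CPM (SD, n = 10) in days 1 to 4 and 9.57 ± 4.07 CPM (SD, n = 12) in days 5 to 8. Its libraries held 10.9 and 19.0 CPM on day 1, 7.64, 17.8 and 6.48 on day 2, 6.82, 6.31 and 10.8 on day 3, and 7.27 and 9.84 on day 4. They held 3.22, 5.08 and 8.76 CPM on day 5, 4.37, 11.3 and 7.30 on day 6, 10.9, 10.5 and 14.6 on day 7, and 9.47, 12.9 and 16.4 on day 8. Both day 4 libraries lay below both day 1 libraries, and all 3 day 8 libraries lay above all 3 day 5 libraries. The day means stood in the order 1, 8, 7, 2, 4, 3, 6 and 5, from 14.9 to 5.68 CPM, and libraries of neighbouring days in this order overlapped throughout.

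From day 5 to day 8 the log2 change of sad was 1.17 ± 0.43 (SE, 95% interval 0.28 to 2.07), with an unadjusted edgeR p of 0.0126 and an adjusted p of 1. From day 1 to day 4 it was -0.78 ± 0.55 (SE), with an adjusted p of 0.612. The difference between these changes was 1.95 ± 0.70 (SE, 95% interval 0.50 to 3.40), with an unadjusted p of 0.0105 and an adjusted p of 0.412. Over 8024 genes 807 had an unadjusted p under 0.05 in this last comparison, and none of them passed adjustment. Without the 3 libraries with almost no spike-in, which include 1 of the 2 libraries of day 4, the difference was 2.20 with an adjusted p of 0.377.

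The gene for the last conversion, shd, was the least abundant. Its mean was 2.02 ± 1.40 CPM (SD, n = 10) in days 1 to 4 and 1.60 ± 1.05 CPM (SD, n = 12) in days 5 to 8. Day 4 replicate 1 and day 6 replicate 1 had no count, where 3 counts would be 2.53 and 0.729 CPM. The other 20 libraries held 1 to 30 counts. The highest level was 5.12 CPM, in day 3 replicate 1, from 6 counts.

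**Figure D2:**
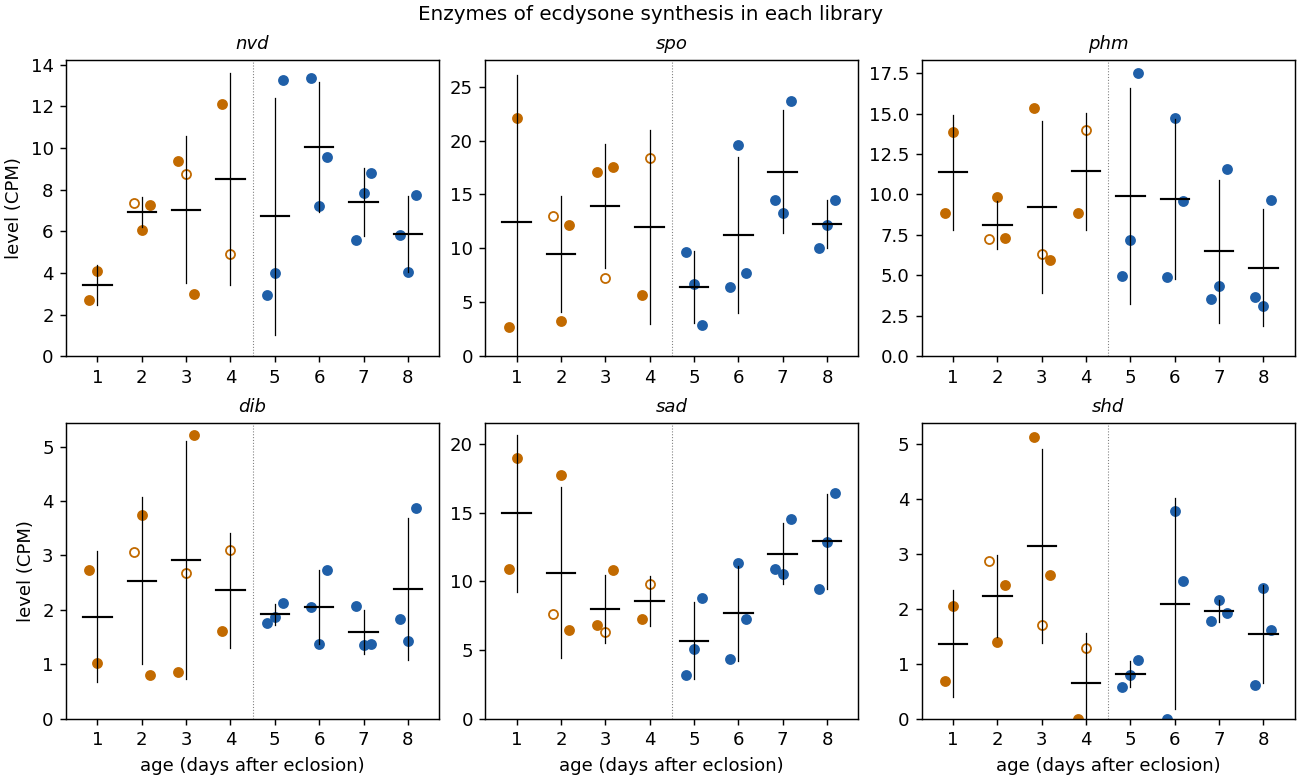
Level in CPM of the 6 enzyme genes in each library (points), by age in days, with the mean of each day (black line) and ± 1 SD (thin bar, drawn no lower than 0). Orange is days 1 to 4, blue is days 5 to 8, open circles are the 3 libraries with almost no spike-in, and the dotted line parts the dissections. For every gene libraries of neighbouring days overlap in the order of day means; the lowest sad levels, 3.22 and 4.37 CPM, are on days 5 and 6.

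The zinc finger proteins are nuclear factors: Molting defective (mld) is known to be needed for transcription of nvd and of spok in the larval gland, and Without children (woc) for ecdysone production and for chromosome ends. Levels of mld were 486 ± 111 CPM (SD, n = 10) in days 1 to 4 and 537 ± 53.4 CPM (SD, n = 12) in days 5 to 8. Its libraries held 539 and 577 CPM on day 1, 377, 611 and 560.3 on day 2, 536, 354 and 484 on day 3, and 545 and 278 on day 4. They held 509, 514 and 529 CPM on day 5, 599, 578 and 599 on day 6, 589.7, 563 and 537 on day 7, and 538, 428 and 464 on day 8. The lowest 3 values of all were those of the 3 libraries with almost no spike-in, at 278 to 377 CPM. They overlapped neither the other 7 libraries of days 1 to 4, at 484 to 611 CPM, nor the 12 of days 5 to 8, at 428 to 599 CPM.

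Levels of woc were 672 ± 101 CPM (SD, n = 10) in days 1 to 4 and 654 ± 41.4 CPM (SD, n = 12) in days 5 to 8. Its libraries held 731 and 654 CPM on day 1, 587, 705 and 788 on day 2, 805, 538 and 619.6 on day 3, and 765 and 532 on day 4. They held 666, 695 and 685 CPM on day 5, 672, 692 and 707 on day 6, 635, 606 and 655 on day 7, and 656, 604 and 574.5 on day 8. All day 8 libraries lay below all day 5 libraries, with a log2 change of -0.16 ± 0.16 (SE) that was not called. The 3 libraries with almost no spike-in held 532 to 587 CPM, below the other 7 of days 1 to 4 at 619.6 to 805 CPM, but overlapping days 5 to 8, which began at 574.5 CPM. Per length, mld stood at 0.449 to 0.566 of woc in these 3 libraries and at 0.573 to 0.758 in the other 7.

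The change of mld from days 1 to 4 to days 5 to 8 turned on these 3 libraries. Its log2 change was 0.15 ± 0.11 (SE), with an edgeR adjusted p of 0.421, over all 22 libraries and -0.03, with an adjusted p of 0.853, without the 3. Follicle cell markers set the 3 libraries apart as well: the 8 genes summed to 488 to 621 CPM in them and to 641 to 907 CPM in the other 7 libraries of days 1 to 4. So did the fat body list, at 38.03 to 48.2 CPM against 51.0 to 147 CPM, and the 9 genes for the hormone receptor and early response described below, at 741 to 832 CPM against 1124 to 1521 CPM. The fat body sum was nearly all Rfabg, with a mean of 65.5 of 66.3 CPM in days 1 to 4, so it does not stand for the other genes of that list. Summed germline, chorion, muscle and haemocyte markers overlapped, germline markers at 4444 to 5033 CPM against 4720 to 5154 CPM, muscle markers at 419 to 572 CPM against 468 to 2467 CPM. The 3 libraries were also the deepest of days 1 to 4, with 3648865 to 9781870 gene counts against 1146915 to 2573634, and had the highest share of insertion features, 2.64 to 4.11% against 1.51 to 2.35%. The part of any of these in the lower mld and woc was not tested. Levels of each of the 6 enzymes, which rest on few counts, overlapped between the 3 libraries and the other 7. The share of all genes that separate these libraries was not counted, so it is not known whether the separation or the overlap is particular to these genes.

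**Figure D3:**
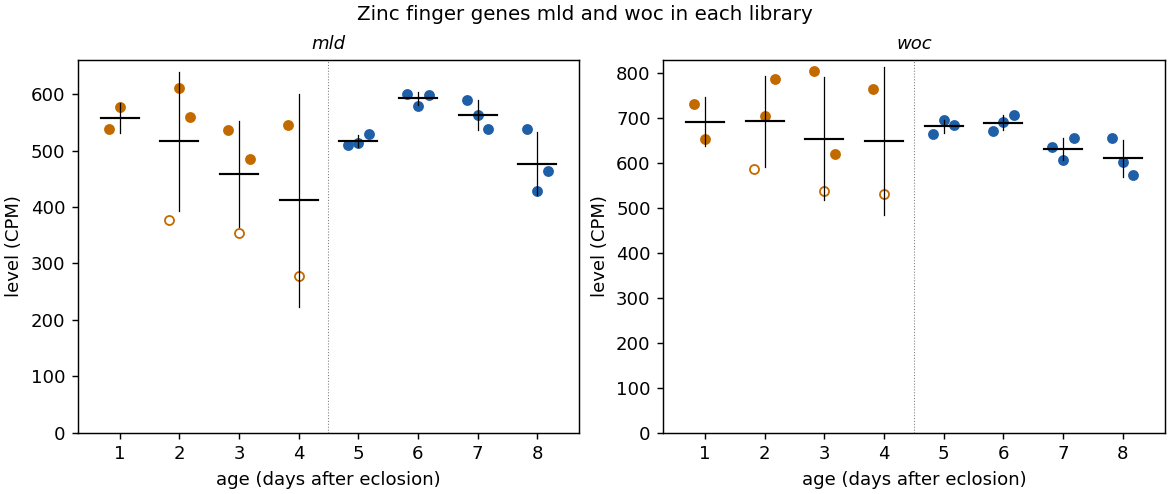
Level in CPM of mld and woc in each library (points), by age in days, with the mean of each day (black line) and ± 1 SD (thin bar). Colours, open circles and the dotted line are as in the plot of the enzymes. The open circles, at 278 to 377 CPM for mld and 532 to 587 CPM for woc, lie below the filled orange points.

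Replicate scatter differed between enzymes and zinc finger genes. The biological coefficient of variation, edgeR's estimate of spread beyond counting error, was 47.9% for spo, 44.0% for phm, 39.4% for nvd, 38.8% for dib, 32.6% for sad and 54.4% for shd. It was 18.1% for mld and 14.5% for woc, and its median over all genes tested was 20.9%. Thus 76.2 to 88.6% of tested genes had a lower value than the 6 enzymes, while 36.0% had a lower one than mld and 13.4% than woc. Counting error alone did not account for the scatter of spo, phm, nvd and sad within days, where the chi-square per degree of freedom was 9.34, 7.44, 4.47 and 4.23. Nor did it for the zinc finger genes, at 43.15 for mld and 22.37 for woc. For shd the value was 1.91. At a given spread this value grows with the number of counts, so it does not rank genes of unlike level. Estimates of spread also depend on the mean level, and genes of matched level were not compared. Both measures for mld and woc include the 3 libraries with almost no spike-in. The largest ratio of mld within a day was 1.96, on day 4. There replicate 2, with almost no spike-in, held 278 CPM and replicate 1 held 545 CPM.

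Of the genes around this route, 31 were listed by role and 23 passed the filter. In days 5 to 8 against days 1 to 4, 3 were called higher and 2 lower, and their median log2 change was -0.05. For all genes tested the shares called, given above, were 4.06% and 4.76%. In the other 5 comparisons 0 of the 23 was called with edgeR, where 1 to 3 had an unadjusted p under 0.05. DESeq2 called Cyp18a1 and Oatp74D for any difference among days 1 to 4 (adjusted p 0.048 and 0.0292) and 0 in the other 4. Without the 3 libraries with almost no spike-in, edgeR called Hr4 for any difference among days 1 to 4, but day 4 then kept only replicate 1. Without a filter on low counts edgeR called Cyp18a1, Hr4 and Oatp74D among days 1 to 4 (adjusted p 3.4e-08, 0.00351 and 0.0268), and Cyp18a1 among days 5 to 8 (1.28e-05) and for day 4 against day 1 (0.0313).

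Among partners of the enzymes, sro, a dehydrogenase of the middle steps, was measured at 7.60 ± 3.23 CPM (SD, n = 10) and 7.76 ± 1.72 CPM (SD, n = 12) in the younger and older libraries. This was the level range of the enzymes themselves. Cyp6t3, another P450 assigned to the middle steps, had 0 counts in all 22 libraries, which allows up to 0.0406 CPM. The electron donors of the mitochondrial P450 enzymes, dare and Fdx1, stood at 15.9 and 15.8 CPM in days 1 to 4 and 13.9 and 20.6 CPM in days 5 to 8, and GstE14, a glutathione transferase needed in the route, at 3.47 and 5.86 CPM. None of these 4 measured genes was called, with adjusted p of 0.208 to 0.933.

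For sterol supply, 4 of 5 genes were tested and 0 called. Npc1a, which releases cholesterol from endosomes, held 91.8 CPM in days 1 to 4 and 105 CPM in days 5 to 8, and Start1, a sterol-binding protein, spanned 21.4 to 31.5 and 18.5 to 25.1 CPM. Among 7 regulators of the synthesis genes, 4 were tested. ftz-f1, a nuclear receptor that drives phm and dib in the larval gland, held 145 and 152 CPM, and ecd, named for its lack of ecdysone in mutants, 36.3 and 35.4 CPM. The regulators ouib (listed as CG11762), vvl and kni held 13, 35 and 7 counts in all and were not tested.

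One regulator, the nuclear receptor Hr4, was called lower in days 5 to 8. Its levels ran from 2.43 to 50.9 CPM with a median of 7.79 CPM in days 1 to 4 and from 2.90 to 12.3 CPM with a median of 4.31 CPM in days 5 to 8, so the groups overlapped. Its log2 change was -1.08 ± 0.34 (SE), with an edgeR adjusted p of 0.0476. The highest level was that of day 4 replicate 1, and without that library the log2 change was -0.37 with an adjusted p of 0.466. The call was lost when any 1 of 19 libraries was left out and held without replicate 3 of day 3 or 6 or replicate 2 of day 4. Without the 3 libraries with almost no spike-in the log2 change of Hr4 was -1.39. That fit, like the one without replicate 2 of day 4, kept only replicate 1 for day 4, the library with the highest Hr4 level.

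Transport and turnover of the hormone gave 2 of the 3 higher calls. Cyp18a1, the P450 that inactivates the active hormone, was at 9.54 to 80.7 CPM (median 35.4) in days 1 to 4 and 27.8 to 115 CPM (median 58.9) in days 5 to 8. It rose by a log2 change of 0.73 ± 0.21 (SE), with an edgeR adjusted p of 0.0306. Oatp74D, the importer that brings ecdysone into cells, was at 1.05 to 13.7 CPM (median 4.72) and 3.82 to 11.01 CPM (median 8.03), and rose by 0.83 ± 0.26 (SE), with an adjusted p of 0.0471. For both genes the age series overlapped. Without the 3 libraries with almost no spike-in neither was called, with log2 changes of 0.63 and 0.64 and adjusted p of 0.0802 and 0.165. The exporter E23 held 179 and 175 CPM and was not called.

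The Cyp18a1 call was lost without replicate 1 of day 1 or 2, replicate 2 of day 4, or replicate 3 of day 5, 6, 7 or 8, and its adjusted p then reached 0.0842. The Oatp74D call held only without replicate 1 of day 4, 5 or 6 or replicate 2 of day 1, 2 or 8, and was lost without any other single library, with an adjusted p of up to 0.128.

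Of 9 genes for the receptor and early response, 8 were tested and 2 called. Eip75B, a nuclear receptor induced by the hormone, was at 184 to 451 CPM (median 307) in days 1 to 4 and 355 to 499.5 CPM (median 448) in days 5 to 8. It rose by a log2 change of 0.51 ± 0.12 (SE), with an edgeR adjusted p of 0.0100, and the call held without each single library (adjusted p 0.00147 to 0.0395) and without the 3 libraries (0.0114), where its log2 change was smaller, at 0.32. usp, which forms the hormone receptor with EcR, was at 74.2 to 121 CPM and 65.7 to 99.1 CPM, and fell by 0.27 ± 0.08 on the log2 scale, with an adjusted p of 0.0316. For usp the log2 change without the 3 libraries was -0.25, with an adjusted p of 0.0568.

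The usp call was lost in 9 of 22 fits that left out 1 library, which was either library of day 1, replicate 1 of day 2 or 4, replicate 2 of day 7, or replicate 3 of day 3, 5, 6 or 7. Its log2 change in the 22 fits stayed between -0.30 and -0.23. EcR held 142 CPM in days 1 to 4 and 120.2 CPM in days 5 to 8 and was not called (log2 change -0.24, adjusted p 0.163), but was without the 3 libraries (-0.37, adjusted p 0.0113). Hr46, known as Hr3 and an early-late gene of the response, stood at 2.12 and 0.557 CPM and was called without the 3 libraries, with an adjusted p of 0.0115, but not with them (0.0903). tai, a coactivator of the receptor, stood just outside the threshold, at 196 ± 60.0 CPM (SD, n = 10) and 272 ± 34.0 CPM (SD, n = 12), with a log2 change of 0.48 ± 0.15 (SE) and an adjusted p of 0.0511. For tai the log2 change without the 3 libraries was 0.24, with an adjusted p of 0.110. DESeq2 called both Hr46 (adjusted p 0.0393) and tai (0.0331).

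**Figure D4:**
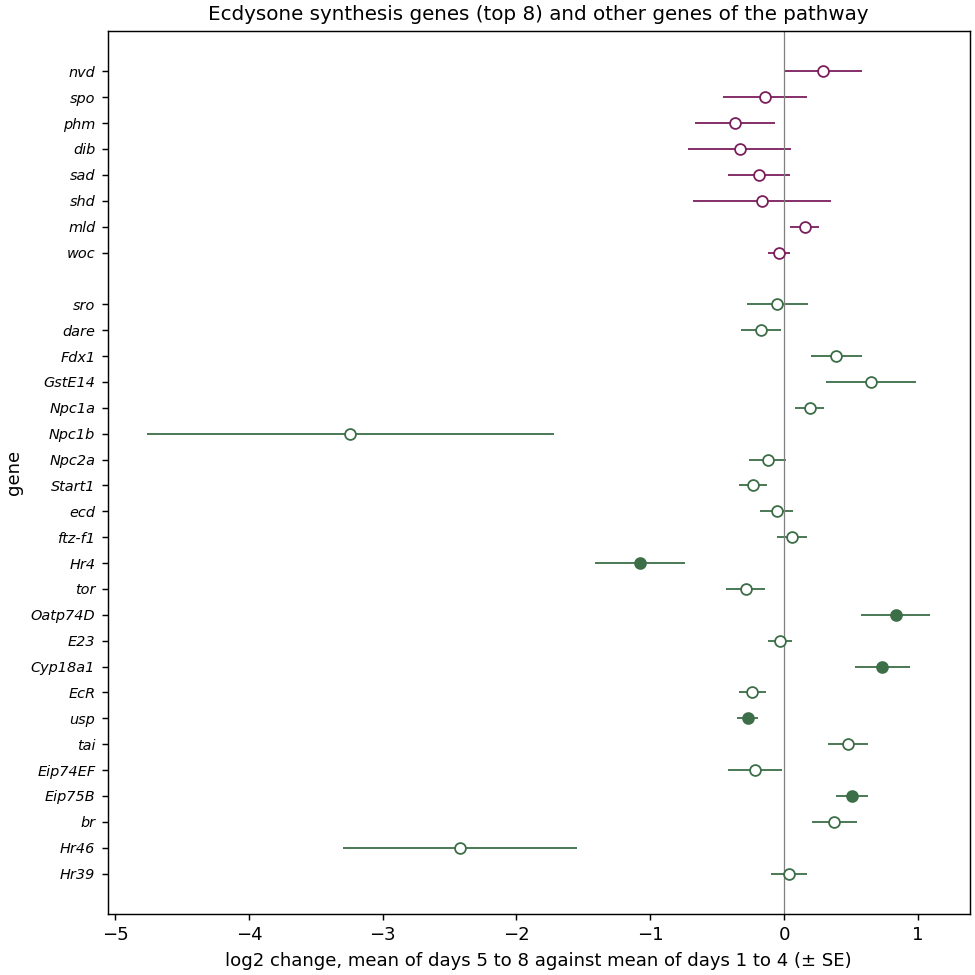
Log2 change from days 1 to 4 to days 5 to 8, as means over days (points), with ± SE (lines), for the 8 ecdysone synthesis genes (purple) and the 23 tested genes around the route (green). Filled points are the 5 genes called at an adjusted p under 0.05: Hr4 at -1.08 and usp at -0.27, and Oatp74D at 0.83, Cyp18a1 at 0.73 and Eip75B at 0.51. None of the purple points is filled.

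Markers of other cells moved between the age series along with these calls. All 10 chorion genes and 9 of 10 muscle genes were called lower in days 5 to 8, the muscle list summing to 419 to 2467 CPM in days 1 to 4 and 269.5 to 689.7 CPM in days 5 to 8. Of 7 tested follicle cell genes 2 were called higher, and the list summed to 488 to 907 CPM and 768 to 1083 CPM. Of 8 germline genes 1 was called higher and 2 lower. Of 5 haemocyte genes 3 were tested and 2, Hml and Pxn, called lower, the list summing to 46.2 to 168.5 CPM and 93.7 to 144.5 CPM. Most of that sum was srp, with means of 84.7 of 105.5 CPM and 110 of 120.3 CPM. The estimate for srp went the other way, with a log2 change of 0.42, and was not called. Of 5 fat body genes 1 was tested and not called. The part of these differences in the 5 calls was not tested.

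The genes whose course over the 8 days was most like that of a member were found by the root mean square difference of log2 day means, each centred on its own mean, among 6758 other tested genes whose level averaged 5 CPM or more. For woc these were msi, an RNA-binding protein, at 0.028 and CG42360 at 0.039, and for mld Piezo, a mechanically gated ion channel, at 0.045 and CG30122 at 0.047. For nvd they were CR45409 at 0.11 and uzip at 0.13, and for spo CG8539 and cbt, a transcription factor, both at 0.19. For phm they were gd, a protease of dorsoventral patterning, and CG11367, both at 0.16, and for sad CG15547 at 0.21 and Mps1, a kinase of the spindle checkpoint, at 0.22. A flat course would lie 0.066 from that of woc, and 56 genes lay within that distance. For mld 1164 genes lay closer than a flat course, and for the 4 enzymes 1473 to 2231 did, so likeness of this size was common.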

How the data were processed

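RNA was measured in 22 libraries as polyA-selected, stranded RNA-seq (76 nt single reads, from 200 ng of total RNA). The authors deposited unnormalized read counts, in whole numbers for each annotated feature and library. The submitters' processing notes name HTSeq 0.6.1p1, HISAT2 2.0.1, CASAVA 1.8.2 and SAMtools 0.1.2. Insertion features, which name no gene, held 1.46 to 4.11% of a library's counts and were left out, like the 96 ERCC features, before library sizes were computed. The 22 columns of the merged table equal the sample files.

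Genes were tested with edgeR 4.0.16 in R 4.3.3 (TMM, default filter with a minimum count of 10, a coefficient per day, quasi-likelihood F-tests, Benjamini-Hochberg adjustment over 8024 genes, threshold 0.05). The code was run on simulated data in which all genes had the same spread. That spread was below the spread of each enzyme gene, so the run does not show what could be detected for the enzymes. CPM are computed here from the counts, and per-length levels use the union of exons in the deposited annotation. Fold changes are later against earlier days. The labels call the replicates independent biological replicates. Intervals for log2 changes are 95%, and floors of 3 counts cover counting error only.

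Members, pathway lists and marker lists were chosen with earlier results of these data known. All 8 members are named, any gene of the pathway lists may be named, and the 2 genes most like each member with a mean of at least 5 CPM are named. Tried as alternatives were DESeq2 1.42.0 as the test, its size factors within edgeR, no filter or 1 CPM in 6 libraries, the replicate number as a block, the fit of 1 age series alone, leaving out each library, and leaving out the 3 libraries with almost no spike-in. Reads that match several features may have been split between gene copies or left out. Their treatment was not given in the sources used here. Sequences are not shown here.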

Additional observations from a re-analysis of the deposited data

Results flagged for a closer look

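The change of sad from day 5 to day 8 differed from its change from day 1 to day 4 by 1.95 on the log2 scale, because both day 4 libraries (7.27 and 9.84 CPM) lay below both day 1 libraries (10.9 and 19.0 CPM) while all day 8 libraries (9.47, 12.9 and 16.4 CPM) lay above all day 5 libraries (3.22, 5.08 and 8.76 CPM). In edgeR's test of this difference the unadjusted p was 0.0105 and the adjusted p 0.412, so it did not pass the threshold. Leaving out each library in turn gave 1.44 to 2.40, and the difference was 1.97 with DESeq2 (adjusted p 0.313). The counts behind it are 9 to 54 in a library of days 1, 4, 5 and 8, and days 1 and 4 have 2 libraries each. The share of all genes whose libraries part in this way was not counted.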

How the results depend on the processing

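In all 29 alternative settings, 1365 tests with an adjusted p, 0 of the 8 genes was called. The lowest adjusted p was that of mld in days 5 to 8 against days 1 to 4 without day 4 replicate 1. In that fit day 4 kept only replicate 2, which had almost no spike-in and the lowest mld of all libraries, 278 CPM. In the fit of 1 age series alone 6 of the 8 passed the filter. Counts over all genes moved more, from 708, 2, 1, 3, 0 and 0 in the order of days 5 to 8 against days 1 to 4, any difference in days 1 to 4, any difference in days 5 to 8, the change from day 1 to day 4, the change from day 5 to day 8, and the difference of these changes. DESeq2 called 884, 55, 17, 13, 1 and 2, and edgeR without a filter 912, 275, 135, 121, 26 and 107. Without the 3 libraries with almost no spike-in the first 3 counts were 1157, 16 and 5 and the last was 1. The fit of 1 age series alone gave 0 and 4 for any difference in days 1 to 4 and in days 5 to 8 and 0 for day 4 against day 1. Leaving out 1 library gave 401 to 809, 0 to 47, 0 to 4, 0 to 5, 0 and 0 to 1.

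The main fit did not pair libraries by replicate number. Of 71 same-numbered pairs of different days 25 had a correlation of deviations over 0.1, with a median of 0.0492. The correlations ran from -0.506 to 0.387 over all pairs and from -0.0656 to 0.257 within days 5 to 8. Whether libraries of the same number share a source of variation was not tested. With the number as a replicate block, 2 genes were called among days 5 to 8, 11 for day 4 against day 1 and 1 for the difference of changes, and 2 of the 23 pathway genes, usp and Eip75B, in days 5 to 8 against days 1 to 4. The calls of Cyp18a1, Oatp74D and Hr4 were then lost, with adjusted p of 0.0551, 0.064 and 0.0795. Pathway genes called ranged from 1 to 5 when 1 library was left out.

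The estimates of the 8 genes that changed sign were not called in any setting. Without the 3 libraries, the log2 change for days 5 to 8 against days 1 to 4 was 0.19 for spo, 0.93 for shd and -0.026 for mld. For day 4 against day 1 it was then -1.15 for spo, -0.33 for phm, -0.13 for dib, 0.0042 for mld and 0.18 for woc, and for the difference of changes 0.42 for dib and -0.11 for mld. For day 4 against day 1 spo was also below 0 with DESeq2 (-0.037), with its size factors (-0.0045) and in 1 age series alone (-0.0025). Leaving out 1 library gave -0.33 to 0.43 for spo, -0.33 to 0.99 for shd and -0.089 to 0.041 for woc between the age series. For day 4 against day 1 it gave -1.15 to 2.29 for spo, -0.33 to 0.46 for phm, -0.13 to 1.28 for dib, -5.24 to 0.34 for shd, -0.96 to 0.0051 for mld and -0.34 to 0.18 for woc. For day 8 against day 5 it gave -0.57 to 0.74 for nvd and -0.23 to 0.57 for dib, and for the difference of changes -1.35 to 2.09 for spo, -0.98 to 0.43 for dib, -0.12 to 0.85 for mld and -0.33 to 0.19 for woc. The cause was not tested. Where a day keeps a single library, its spread is taken to be that of other days. Depth limits the enzymes most: dib and shd had under 3 counts in several libraries.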
